A study of Mus musculus with 12 samples.

Results

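The genes described here are 40 mouse genes of mitosis and chromosome segregation, out of 27095 genes counted in the deposited tables. They were chosen by symbol, with no measured value in the rule, as the cyclins and Cdk1 of the G2 to M transition, mitotic kinases, spindle checkpoint and kinetochore proteins, spindle motors and condensin subunits, and all 40 were found in both tables. The study profiled acetylation of lysine 14 of histone H3 (H3K14ac) with ChIP-seq, which sequences DNA pulled down by an antibody to the mark, in neural stem and progenitor cells (NSPCs) grown as neurospheres from the cortices and ganglionic eminences of E14.5 mouse embryos. Differentiating wild-type (WT) cells, which had been dissociated and plated on laminin with culture medium for cortical neurons, gave 3 H3K14ac ChIP libraries, and proliferating WT cells kept as neurospheres gave 3. The backgrounds were 1 differentiating and 1 proliferating library each of Hbo1 null H3K14ac ChIP, of an IgG control and of WT input chromatin. Hbo1 is another name of Kat7, the acetyltransferase gene whose product is needed for H3K14ac. The labels give no genotype for the IgG libraries, no time in differentiation medium and no allele or Cre driver for the null cells. The study's text names 4 WT foetuses, but no label ties a replicate number to a foetus or a culture, so the p-values measure only how far these libraries differ, and that spread may be technical.

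Mitotic genes are silent in resting cells and rise together as a cell passes from S phase into mitosis. In mammals this wave is controlled through promoter elements, among them the cell cycle genes homology region (CHR), which binds the MuvB core of the repressive DREAM complex and of the activating B-Myb and FoxM1 complexes, and the CCAAT box, which binds NF-Y. Cyclins A and B with Cdk1 start mitosis, condensins and topoisomerase II shape the chromosomes, kinetochores and the passenger complex attach and correct them, and the anaphase promoting complex (APC) ends the process. H3K14ac is found around the start sites of transcribed genes and is placed in large part by HBO1. Neural progenitors of the embryonic forebrain divide rapidly, and neurons leave the cell cycle for good.

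For each gene the tables hold the reads in the first 1 kb from its transcription start, called the start window here, and the reads over the whole gene body. Gene body totals were 12549913 to 17074249 counts in the differentiating ChIP libraries, against 3992697 to 7611239 in the proliferating ones, so depth and stage cannot be told apart. The null libraries held 320601 (differentiating) and 64071 (proliferating) gene body counts. Start windows held 3.45% ± 0.22 of all gene body counts in differentiating ChIP, 4.77% ± 0.18 in proliferating ChIP (SD, n = 3 each), and 3.23% and 3.36% in the differentiating and proliferating inputs. Enrichment at starts was therefore low across the series. A member's window held between 1 and 40 counts in a WT ChIP library, and this counting error limits every value given for a gene. Levels below are start window counts per 1e6 gene body counts of the library (CPM), for windows of equal length. In bulk chromatin, fewer cells that carry the mark and less of it per cell cannot be told apart.

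Promoter sequences are shown for the genes whose start windows fell in the stage comparison, to let the shared elements be seen. RefSeq promoters of build GRCm38.p6 (250 bases before to 50 after the start) were found for 33 of the 40 genes, with 35 entries, and Ccna2, whose window also fell, has none in that table. Each is printed 5′ to 3′ on the gene's own strand, with CCAAT and its reverse complement ATTGG, and TTTGAA (the CHR core) and its reverse complement TTCAAA, in capitals. The positions are chr7:135716330-135716629 (minus strand) for Mki67, chr13:100786437-100786736 (minus strand) for Ccnb1, chr4:124936868-124937167 (minus strand) for Cdca8, chr1:191821223-191821522 (plus strand) for Nek2 and chr3:27153805-27154104 (minus strand) for the first of the 2 Ect2 entries. Only the last 50 bases of each lie inside the start window, if both use the same start. The positions of the start windows are not given. The RefSeq gene records of Mki67, Nek2 and Ect2 begin further upstream, and from there more of the printed sequence would lie inside.
Mki67: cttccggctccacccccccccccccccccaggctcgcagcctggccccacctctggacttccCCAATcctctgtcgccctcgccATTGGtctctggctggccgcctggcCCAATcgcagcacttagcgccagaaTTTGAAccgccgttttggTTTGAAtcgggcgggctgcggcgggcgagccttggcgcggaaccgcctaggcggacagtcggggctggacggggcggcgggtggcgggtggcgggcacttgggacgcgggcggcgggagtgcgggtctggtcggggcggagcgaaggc
Ccnb1: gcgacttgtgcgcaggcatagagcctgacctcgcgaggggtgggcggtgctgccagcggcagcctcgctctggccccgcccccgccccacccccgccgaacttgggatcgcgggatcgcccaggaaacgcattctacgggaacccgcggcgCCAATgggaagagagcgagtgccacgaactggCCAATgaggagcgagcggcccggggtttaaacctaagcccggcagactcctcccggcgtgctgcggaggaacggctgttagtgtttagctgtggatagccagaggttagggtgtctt
Cdca8: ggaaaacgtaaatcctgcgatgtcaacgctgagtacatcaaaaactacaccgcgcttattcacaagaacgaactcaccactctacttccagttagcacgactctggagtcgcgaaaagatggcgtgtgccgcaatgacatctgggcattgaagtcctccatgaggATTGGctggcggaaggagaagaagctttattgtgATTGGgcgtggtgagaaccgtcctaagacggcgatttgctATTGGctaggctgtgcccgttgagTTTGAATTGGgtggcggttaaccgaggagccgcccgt
Nek2: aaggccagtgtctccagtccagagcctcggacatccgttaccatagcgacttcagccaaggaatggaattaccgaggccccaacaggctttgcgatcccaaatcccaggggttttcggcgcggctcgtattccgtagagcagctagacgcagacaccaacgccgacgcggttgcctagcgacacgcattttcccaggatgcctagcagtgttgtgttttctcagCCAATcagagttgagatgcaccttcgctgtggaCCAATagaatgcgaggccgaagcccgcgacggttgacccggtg
Ect2: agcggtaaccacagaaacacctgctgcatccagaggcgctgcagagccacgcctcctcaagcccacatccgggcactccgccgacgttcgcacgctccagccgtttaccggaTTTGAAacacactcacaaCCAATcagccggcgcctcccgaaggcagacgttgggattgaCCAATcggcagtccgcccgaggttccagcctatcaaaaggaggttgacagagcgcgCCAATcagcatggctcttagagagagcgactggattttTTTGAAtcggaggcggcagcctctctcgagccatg

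Mki67, Cdca8 and Ect2 carry both elements in these windows, and Ccnb1 and Nek2 carry CCAAT boxes without TTTGAA. In Cdca8 the TTTGAA and the last ATTGG overlap. Across the 35 entries of the mitotic genes, 26 (74.3%) held TTTGAA on either strand, against 17.9% of 32851 mouse promoters in the table, and 27 (77.1%) held CCAAT on either strand, against 37.4%. Both were present in 23 entries (65.7%), against 6.95% of all promoters. An E2F motif spelled TTTCGCGC or TTTGGCGC, on either strand, was found in 2 entries, those of Cdk1 and Ncapd2 (5.71%, against 0.813%). The mitotic promoters were also rich in CpG, with a median observed to expected ratio of 0.884, against 0.384 over all promoters, and a median G+C content of 59.0%, against 52.7%. Members with CCAAT had a median stage difference at the start window of -0.73 (23 tested) and those without it -0.24 (7 tested). The ranges overlapped, from -1.42 to -0.13 with CCAAT and from -0.73 to 0.04 without it, and this split was not tested. In ChIP over input the medians with and without CCAAT were -0.16 and -0.25 in differentiating and 0.94 and 0.90 in proliferating ChIP. For TTTGAA the median stage differences were -0.56 with it (23 tested) and -0.66 without it (7 tested). A match to these letters is a description of the sequence and no evidence of binding.

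Summed over the 40 start windows, H3K14ac ChIP counts were lower in differentiating than in proliferating cells. The sum was 45.7, 44.3 and 43.1 CPM in the 3 differentiating ChIP libraries, against 94.4, 82.7 and 106 in the 3 proliferating ones. All proliferating libraries lay above all differentiating ones, and the ratio of the means, 44.4 ± 1.32 and 94.2 ± 11.5 (SD, n = 3 each), was 0.471. Over all genes the same ratio was 0.723. The inputs gave 49.8 (differentiating) and 50.9 (proliferating), and the IgG libraries gave 45.8 (differentiating) and 55.0 (proliferating). Relative to the input of the same stage, the mitotic windows stood at a log2 of -0.17 ± 0.04 in differentiating ChIP and 0.88 ± 0.18 in proliferating ChIP, while all genes stood at 0.09 ± 0.09 in differentiating and 0.51 ± 0.06 in proliferating ChIP (SD, n = 3 each). In differentiating ChIP the summed mitotic starts thus lay slightly below the single input library, and in proliferating ChIP they lay above it. The summed gene bodies of the same genes stood at -0.18 ± 0.04 in differentiating ChIP, near the value of the starts. These sums were not tested. With the 6 windows that fell by the test below left out, the sums were 38.3 ± 0.69 in differentiating and 75.7 ± 7.79 in proliferating ChIP, a ratio of 0.506.

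The 7 role groups gave ratios of differentiating to proliferating ChIP between 0.397 and 0.556. Cyclins, Cdk1 and proliferation factors gave the lowest, 0.397, with 6.82 ± 0.261 CPM in differentiating and 17.2 ± 2.40 in proliferating ChIP. Checkpoint and APC genes gave the highest, 0.556, with 4.53 ± 0.677 in differentiating and 8.14 ± 2.79 in proliferating ChIP. Between them lay centromere and kinetochore genes (0.460), the passenger complex (0.464), condensin and topoisomerase (0.465), mitotic kinases (0.495) and spindle and cytokinesis genes (0.50).

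**Figure D1:**
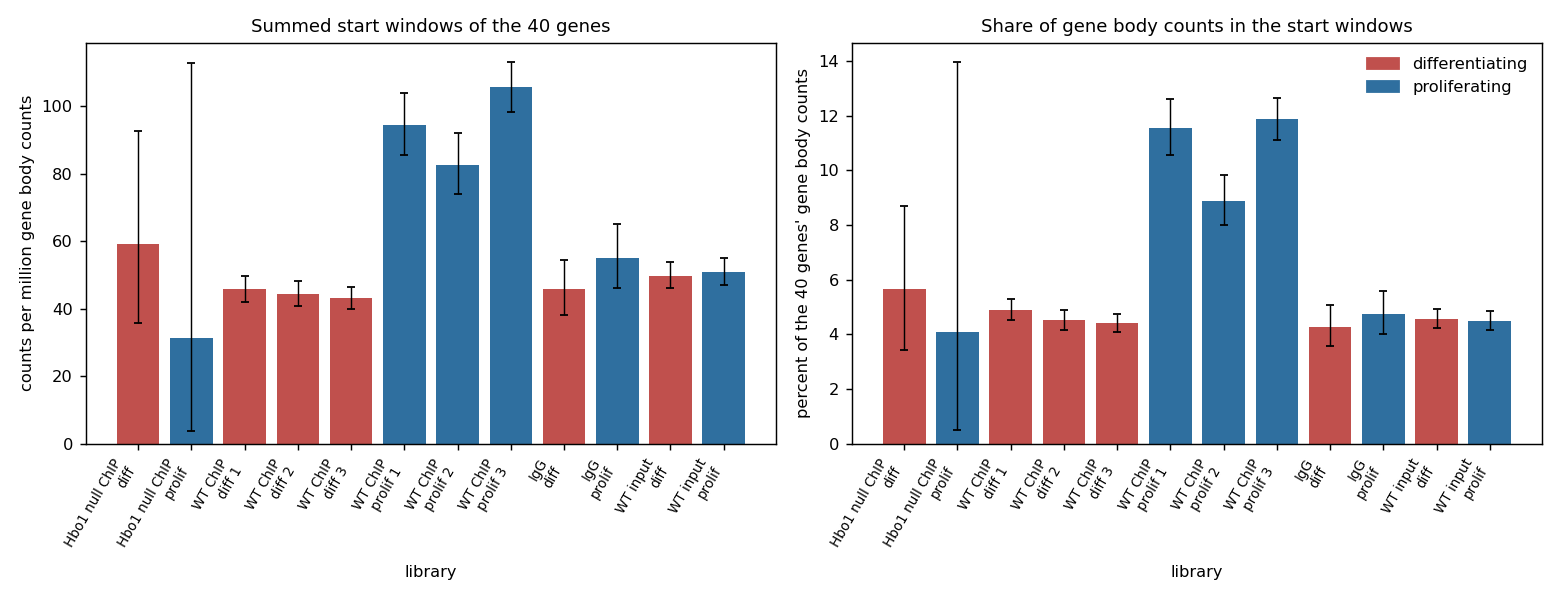
Left, start window counts summed over the 40 genes, in CPM, in each of the 12 libraries, and right, the same counts as a percent of the 40 genes' gene body counts. Bars are single libraries and lines are exact 95% intervals for counting error, Poisson on the left and binomial on the right. The 3 proliferating WT ChIP bars reach 82.7 to 106 CPM, and those of the differentiating ChIP, IgG and input libraries lie between 43.1 and 55.0.

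Tested gene by gene with edgeR's quasi-likelihood test, with trimmed mean of M values (TMM) scaling and Benjamini-Hochberg adjustment over 19477 windows, 6 of the 37 mitotic windows with enough counts fell in differentiating cells and none rose. These were Mki67, Ccna2, Ect2, Cdca8, Ccnb1 and Nek2. That is 16.2% of the members tested, against 4.57% of all windows that were lower and 2.03% that were higher. The median log2 difference (differentiating over proliferating) was -0.66 over the members and 0.02 over all windows, and 35 of the 37 members had a negative value. An unadjusted p under 0.05 was reached by 19 members. Bub1, Nuf2 and Ncapd2 had mean counts under 10 and were not tested. With TMM scaling, 18 of the 37 members had all 3 differentiating libraries below all 3 proliferating ones, against 13.5% of all windows, and none lay the other way, against 11.9%. Without proliferating replicate 3, which is the deepest library of its stage, no member passed the test, against 1.33% of all windows that were lower. The count was 3 without differentiating replicate 2, against 1.94% of all windows, and 3 without differentiating replicate 3, against 1.8%. DESeq2 called 2 members, Mki67 and Ccna2, against 2.66% of all windows.

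The choice of scaling sets the overall level of this comparison. TMM centres the windows, whereas gene body totals as library sizes put the median of all windows at -0.47. On that scale the members' median was -1.15, all 37 were negative, and 28 were lower by the edgeR test, against 25.7% of all windows. Libraries did not overlap at 29 of the 37, all lower in differentiating cells, against 33.7% of all windows. The CPM values given for each gene below carry this general shift, and the fitted log2 differences with TMM do not. Whether libraries overlapped is also stated below for the CPM values. With TMM scaling Cdca8, Cdc20, Kif11 and Aurka were not among the 18 members whose libraries did not overlap.

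**Figure D2:**
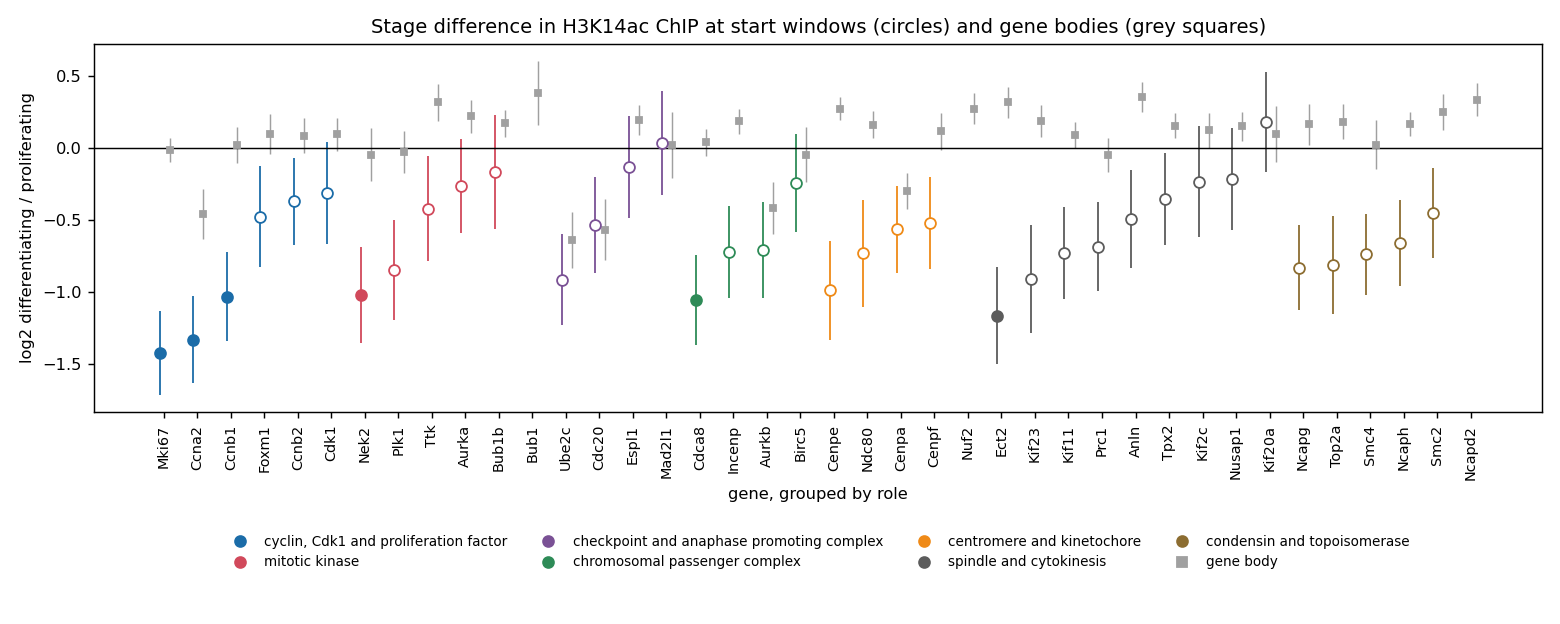
Log2 difference of H3K14ac ChIP, differentiating over proliferating, for each of the 40 genes grouped by role. Circles are start windows (TMM, edgeR; filled where the adjusted p is under 0.05), grey squares are gene bodies, and lines are 1 standard error. The start windows lie between -1.42 and 0.18 with 6 filled circles, and the gene bodies lie between -0.64 and 0.39 with none called.

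Among the cyclins, Cdk1 and the proliferation factors, 3 of 6 windows fell. Mki67 encodes Ki-67, a protein that coats mitotic chromosomes and is the standard marker of dividing cells. Its window held 1.91, 0.626 and 0.879 CPM in differentiating ChIP, against 3.52, 3.26 and 5.26 in proliferating ChIP (means 1.14 ± 0.68 and 4.01 ± 1.1, SD, n = 3 each). All differentiating libraries were below all proliferating ones, with a log2 difference of -1.42 (SE 0.29, adjusted p = 0.000606). Behind these values stand 24, 8 and 15 counts in differentiating and 16, 13 and 40 counts in proliferating ChIP. Ccna2 encodes cyclin A, the partner of Cdk2 and Cdk1 from S phase to early mitosis. It held 1.20, 1.10 and 0.820 CPM in differentiating and 3.52, 3.01 and 4.07 in proliferating ChIP, also without overlap, a difference of -1.33 (SE 0.30, adjusted p = 0.00197). Ccnb1 and Ccnb2 encode B-type cyclins, which activate Cdk1 at the entry into mitosis. For Ccnb1 the values were 0.956, 0.939 and 1.29 in differentiating ChIP, against 3.30, 2.76 and 3.29 in proliferating ChIP. These groups did not overlap, and Ccnb1 differed by -1.03 (SE 0.31, adjusted p = 0.0243). Ccnb2 held 1.28, 1.41 and 1.70 in differentiating and 1.54, 3.26 and 3.15 in proliferating ChIP, where the first proliferating library lay within the differentiating range, and its difference of -0.37 (SE 0.30, adjusted p = 0.482) did not pass. Foxm1, a transcription factor that drives late cell cycle genes, held 0.638, 1.33 and 1.11 in differentiating and 1.76, 2.76 and 1.84 in proliferating ChIP, with a difference of -0.47 (SE 0.35, adjusted p = 0.429). Cdk1, the kinase that triggers mitosis, had 1.12, 1.17 and 0.996 in differentiating and 2.20, 0.751 and 2.37 in proliferating ChIP. The second proliferating library was below all differentiating ones, and the difference was -0.31 (SE 0.36, adjusted p = 0.637).

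Of the 6 mitotic kinases, Nek2 fell. NEK2 separates the centrosomes before mitosis. Its window held 0.877, 0.939 and 0.937 CPM in differentiating ChIP, values within a narrow range, against 1.54, 2.76 and 3.29 in proliferating ChIP. The groups did not overlap, and the difference was -1.02 (SE 0.33, adjusted p = 0.0418), the closest to the threshold among the genes that passed. Plk1, the polo-like kinase needed for centrosomes, kinetochores and cytokinesis, held 1.12, 0.939 and 0.761 in differentiating and 2.42, 2.51 and 2.23 in proliferating ChIP. Without overlap, its difference of -0.85 (SE 0.35, adjusted p = 0.117) did not pass the adjusted threshold. Ttk encodes MPS1, which starts spindle checkpoint signalling. It held 0.956, 0.939 and 1.11 in differentiating and 2.86, 1.25 and 1.71 in proliferating ChIP, where the first library was high, and differed by -0.42 (SE 0.36, adjusted p = 0.509). Aurka, the spindle pole kinase, held 1.36, 1.64 and 0.937 in differentiating and 1.76, 2.76 and 2.10 in proliferating ChIP, a small gap, with a difference of -0.26 (SE 0.33, adjusted p = 0.670). The start window of Aurka overlaps Cstf1, and how reads in both genes were counted is not given in the sources used here. Bub1b (BUBR1, a checkpoint component) had 10 to 20 counts in differentiating and 5 to 12 in proliferating ChIP, with a difference of -0.16 (SE 0.40, adjusted p = 0.837), and Bub1 was too sparse to test.

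Checkpoint and APC genes showed no window past the threshold. Ube2c encodes the ubiquitin-conjugating enzyme that works with the APC. It held 0.956, 1.02 and 1.23 CPM in differentiating ChIP, against 2.86, 2.51 and 3.15 in proliferating ChIP. The groups were far apart, and the difference of -0.91 (SE 0.32, adjusted p = 0.0537) lay just outside the threshold. Cdc20 activates the APC at the onset of anaphase. Its window held 1.12, 1.10 and 1.11 in differentiating and 1.98, 1.50 and 2.89 in proliferating ChIP, without overlap in CPM. The Cdc20 libraries overlapped with TMM scaling, and the difference was -0.53 (SE 0.33, adjusted p = 0.332). Espl1 (separase, the protease that cuts cohesin) and Mad2l1 (a checkpoint protein that inhibits CDC20) had overlapping libraries, with differences of -0.13 and 0.04. Mad2l1 was uneven among proliferating libraries, which held 1.76, 0.251 and 2.37 CPM, against 1.51, 0.782 and 1.29 in differentiating ones.

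In the chromosomal passenger complex, which corrects the attachment of chromosomes to the spindle, Cdca8 fell. Cdca8 encodes borealin, a subunit that targets the complex to centromeres. It held 1.28, 1.17 and 0.761 CPM in differentiating ChIP, against 2.64, 1.75 and 4.07 in proliferating ChIP. The third proliferating library was the highest, and the groups did not overlap in CPM but did with TMM scaling. The difference was -1.05 (SE 0.31, adjusted p = 0.0237). Incenp, the scaffold of the complex, held 1.28, 1.02 and 1.11 in differentiating and 2.42, 1.75 and 3.29 in proliferating ChIP, with a difference of -0.72 (SE 0.32, adjusted p = 0.150). Aurkb, its kinase, held 0.638, 1.10 and 1.29 in differentiating and 1.98, 2.00 and 2.89 in proliferating ChIP. For both genes the libraries did not overlap, and Aurkb differed by -0.71 (SE 0.33, adjusted p = 0.181). Birc5 (survivin, the fourth subunit) had a difference of -0.24 (SE 0.34, adjusted p = 0.712) from 15 to 19 counts in differentiating and 7 to 18 in proliferating ChIP.

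No centromere or kinetochore window passed the threshold, and all 4 that were tested were negative. Cenpe encodes the kinesin that carries chromosomes to the spindle equator. It held 1.20, 0.782 and 0.703 CPM in differentiating and 2.64, 1.75 and 2.76 in proliferating ChIP, without overlap, a difference of -0.99 (SE 0.35, adjusted p = 0.0580). Ndc80, a subunit of the complex that binds microtubules at the kinetochore, held 0.956, 0.782 and 0.879 in differentiating and 3.08, 1.75 and 1.58 in proliferating ChIP, with a difference of -0.73 (SE 0.37, adjusted p = 0.219). Its partner Nuf2 was not tested and held 0.797, 0.861 and 0.644 in differentiating and 0.881, 0.751 and 1.97 in proliferating ChIP, which overlap. Cenpa, the histone H3 variant that marks centromeres, held 1.20, 1.41 and 1.52 in differentiating and 2.86, 3.26 and 2.76 in proliferating ChIP. Those groups did not overlap either, and the difference was -0.56 (SE 0.30, adjusted p = 0.248). Cenpf, a large kinetochore and nuclear matrix protein, held 1.91, 0.704 and 1.17 in differentiating and 3.30, 2.00 and 2.37 in proliferating ChIP, with a difference of -0.52 (SE 0.32, adjusted p = 0.321).

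Of the 9 spindle and cytokinesis genes, Ect2 fell. ECT2 is the exchange factor that activates RhoA to place the contractile ring. Its window held 1.04, 0.626 and 0.879 CPM in differentiating ChIP, against 2.42, 2.00 and 3.29 in proliferating ChIP. The groups did not overlap and differed by -1.16 (SE 0.34, adjusted p = 0.0197). Kif23, a kinesin of the centralspindlin complex that recruits ECT2 to the midzone, held 0.797, 0.939 and 0.703 in differentiating and 1.76, 1.50 and 2.76 in proliferating ChIP. Its difference was -0.91 (SE 0.37, adjusted p = 0.117). Kif11, the motor that pushes spindle poles apart, held 1.28, 0.861 and 1.23 in differentiating and 1.76, 3.26 and 2.89 in proliferating ChIP, and the difference was -0.73 (SE 0.32, adjusted p = 0.146). Prc1, which bundles midzone microtubules, held 1.04, 1.49 and 1.23 in differentiating and 3.96, 2.25 and 2.50 in proliferating ChIP, where the first library was the highest. All 3 genes had libraries without overlap in CPM, though those of Kif11 overlapped with TMM scaling. Prc1 differed by -0.68 (SE 0.31, adjusted p = 0.159). Anln, the contractile ring scaffold anillin, held 0.877, 1.41 and 0.996 in differentiating and 2.20, 2.00 and 2.23 in proliferating ChIP, with a difference of -0.49 (SE 0.34, adjusted p = 0.396). Tpx2, an activator of Aurora A, held 0.956, 1.57 and 1.35 in differentiating and 2.64, 2.00 and 2.37 in proliferating ChIP, with a difference of -0.35 (SE 0.32, adjusted p = 0.535). Differences of Kif2c (a microtubule depolymerase), Nusap1 (a spindle binding protein) and Kif20a (a midzone kinesin) were -0.23, -0.21 and 0.18, with overlapping libraries. Kif20a had the most positive value of the 37 members. The windows of Ect2, Prc1, Anln and Nusap1 overlap other annotated genes. Overlap was looked for only in the 33 genes with a promoter entry. It was not looked for in the other 7, which are Ccna2, Foxm1, Aurkb, Incenp, Kif20a, Tpx2 and Smc4.

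Condensin and topoisomerase windows were all negative where tested, and none passed. Smc4, an ATPase subunit of condensin, held 2.31, 1.64 and 1.23 CPM in differentiating and 3.74, 4.51 and 3.81 in proliferating ChIP. Its mean in proliferating ChIP, 4.02 ± 0.42 (SD, n = 3), was the highest of the 40 windows, beside that of Mki67. Without overlap, Smc4 differed by -0.74 (SE 0.28, adjusted p = 0.0895). Its partner ATPase Smc2 held 1.20, 1.25 and 1.52 in differentiating and 3.52, 2.00 and 2.37 in proliferating ChIP, a difference of -0.45 (SE 0.31, adjusted p = 0.390). Ncapg, a subunit of condensin I, held 1.51, 1.25 and 1.35 in differentiating and 2.86, 3.26 and 3.94 in proliferating ChIP. Ncapg differed by -0.83 (SE 0.29, adjusted p = 0.0607), just outside the threshold. Ncaph, the kleisin that closes the condensin I ring, held 1.28, 1.41 and 1.35 in differentiating and 2.20, 2.51 and 3.81 in proliferating ChIP, with a difference of -0.66 (SE 0.30, adjusted p = 0.163). Top2a, the topoisomerase that untangles sister chromatids, held 1.43, 0.626 and 0.879 in differentiating and 2.42, 2.00 and 2.63 in proliferating ChIP. Its libraries did not overlap, and the difference was -0.81 (SE 0.34, adjusted p = 0.126). Ncapd2 was not tested, and held 0.717, 1.10 and 0.761 in differentiating and 1.76, 0.501 and 1.18 in proliferating ChIP.

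**Figure D3:**
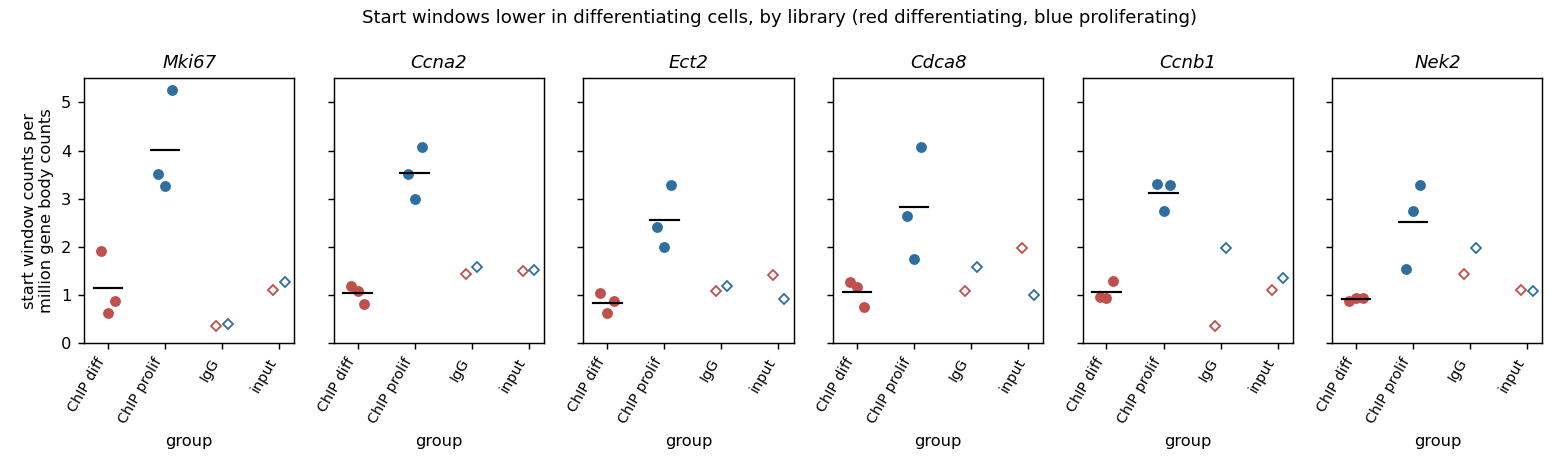
Start window level (CPM) for the 6 genes whose windows fell, in each WT ChIP library (filled circles), IgG library and input library (open diamonds). Horizontal bars are means of 3 ChIP libraries. In each panel all 3 proliferating circles lie above the 3 differentiating circles, and of the differentiating circles only 1 of Mki67 and 1 of Ccnb1 lie above the differentiating input.

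Set against input chromatin, none of the mitotic starts passed the test in differentiating ChIP, and 10 were enriched in proliferating ChIP. In a fit with 1 mean per group and gene body totals as library sizes, edgeR called 10 of 38 members higher than input in proliferating cells (26.3%), against 17.7% of 21557 windows, and 0 lower, against 0.524%. The median log2 over input was 0.90 for the members and 0.45 for all windows. The called genes were Smc4, Mki67, Cdca8, Ect2, Kif23, Smc2, Ncapg, Nek2, Ccna2 and Ccnb1. Smc4 had the largest value, 1.85 (SE 0.48, adjusted p = 0.00185), with 17, 18 and 29 counts in the ChIP libraries and 13 in the input. Mki67 followed with 1.72 (SE 0.45, adjusted p = 0.00196), and Cdca8 with 1.58 (SE 0.47, adjusted p = 0.00787). The rest lay between 1.22 (Ccnb1, adjusted p = 0.0317) and 1.53 (Ect2, adjusted p = 0.0134). In all 3 proliferating libraries 32 of the 38 windows exceeded the input, against 46.7% of all windows, and none was below it in all 3, against 13.6%. Under some other settings the members' count was not above the share of all windows. Without proliferating replicate 3 it was 3 of 37, against 11.2% of all windows, and with TMM scaling it was 2 of 38, against 6.76%. With DESeq2 it was 1 of 38, against 7.98%, and in a fit with 1 common enrichment over both stages 1 of 38, against 11.6%. Each input is 1 library, and the proliferating input held 8 to 24 counts per member window.

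In differentiating ChIP, edgeR called 0 of the 38 members higher than input, against 0.0835% of all windows, and 0 lower, against 0.00464%. DESeq2 called 0 as well, and 2 reached an unadjusted p under 0.05. The median was -0.19 for the members and 0.09 for all windows, and 27 of 38 members were negative. Cdca8 had the lowest value, -0.91 (SE 0.42, adjusted p = 0.432), and Kif11 the highest, 1.24 (SE 0.59, adjusted p = 0.461). The Kif11 value rests on 6 counts in the differentiating input, where the proliferating input held 19. The Cdca8 value rests on 25 counts in the differentiating input, where the proliferating input held 12. All 3 differentiating libraries exceeded the input at 3 of the 38 windows, against 33.3% of all, and lay below it at 15, against 23.3%.

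**Figure D4:**
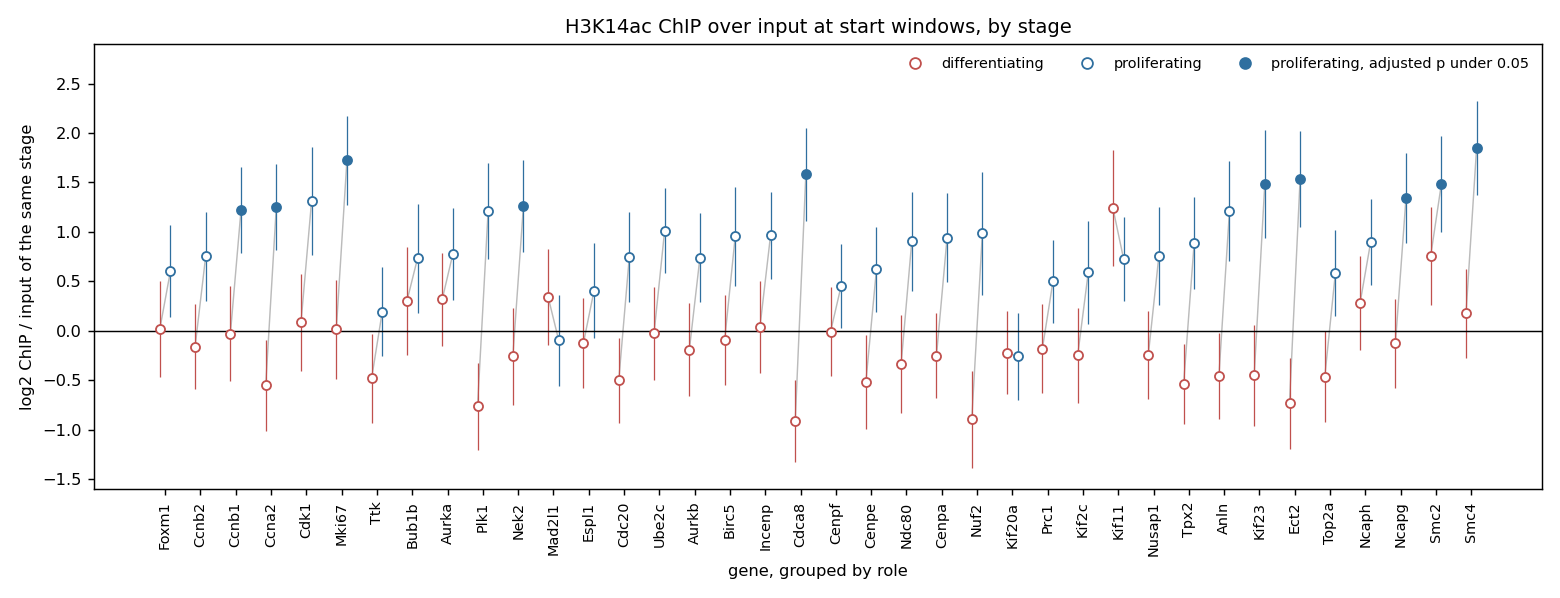
Log2 of WT ChIP over the input of the same stage at the start windows of the 38 genes tested, grouped by role, with differentiating values (red) left of proliferating values (blue). Circles are edgeR estimates with gene body totals as library sizes, lines are 1 standard error, and filled circles have an adjusted p under 0.05. Proliferating values are above 0 for 36 genes, with 10 filled, and differentiating values are below 0 for 27 genes, with none called.

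The difference between the stages in ChIP over input was tested directly as a contrast of the 4 groups. No member passed (edgeR), against 0.0278% of windows lower and 0.0% higher, while 13 members reached an unadjusted p under 0.05. DESeq2 was not run for this contrast. The median was -1.05 for the members and -0.37 for all windows, and 35 of 38 were negative. Each gene's value includes the difference between the single inputs. At Cdca8 the inputs held 1.97 CPM (differentiating) and 1.01 (proliferating). Plk1 held 1.58 (differentiating) and 1.01 (proliferating) in the inputs, and Mki67 held 1.10 and 1.26 in the same order. Cdca8 had the smallest adjusted p, with a value of -2.49 (SE 0.63, adjusted p = 0.0834). Without differentiating replicate 1 the count of members that passed was 1, against 0.313% of all windows lower. Ect2 stood at -2.27 (SE 0.68, adjusted p = 0.154), Plk1 at -1.98 (SE 0.66, adjusted p = 0.218) and Mki67 at -1.71 (SE 0.69, adjusted p = 0.334).

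Against IgG, a control for unspecific pull-down, Mki67 and Smc4 were higher in proliferating ChIP among 33 members tested (6.06%), against 4.33% of 13158 windows higher and 0.16% lower. Mki67 differed by 3.36 (SE 0.99, adjusted p = 0.0316) and held 1 count in the proliferating IgG library, and Smc4 differed by 3.28 (SE 1.02, adjusted p = 0.0393) and also held 1. The members' median, 0.91, was near that of all windows, 0.86. All 3 proliferating libraries exceeded IgG at 21 of the 33 windows, against 63.6% of all, and lay below it at 2, against 10.2%. In differentiating ChIP edgeR called 0 members in either direction, against 0.0% higher and 0.0228% lower over all windows, with 0 at an unadjusted p under 0.05 and 0 by DESeq2. There the median was -0.05 for the members and 0.54 for all windows. All 3 differentiating libraries exceeded IgG at 14 of the 33 windows, against 57.8% of all, and lay below it at 12, against 17.3%. These tests rest on low IgG depth, and TMM scaling, DESeq2 or leaving out proliferating replicate 3 gave 0 members in proliferating ChIP, and leaving out proliferating replicate 2 gave 1. Over all windows those settings gave, in that order, 0.0304%, 0%, 2.38% and 1.8% higher.

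Over whole gene bodies no mitotic gene passed the test between the stages. The count was 0 (edgeR, 40 tested), against 0.0366% of 24564 bodies higher and 0.126% lower, DESeq2 called 0, and 11 members reached an unadjusted p under 0.05. The median log2 difference was 0.12 for the members, with 30 of 40 positive, and -0.0014 for all bodies. Mki67 held 1.04, 1.07 and 1.04 CPM per kb in differentiating ChIP, against 1.18, 1.06 and 1.02 in proliferating ChIP, ranges that overlap, and its difference was -0.01 (SE 0.08, adjusted p = 0.999). Anln and Cenpe had the smallest adjusted p. Anln held 0.929, 1.04 and 1.01 in differentiating and 0.698, 0.812 and 0.859 in proliferating ChIP, a difference of 0.35 (SE 0.10, adjusted p = 0.252), and Cenpe differed by 0.28 (SE 0.08, adjusted p = 0.252). Both genes are among the longest of the 40, at 57993 bases for Anln and 60978 for Cenpe, and their bodies were higher in all 3 differentiating libraries although the start windows were lower. The most negative body values were those of short genes, in which the start window takes a larger share of the body. Ube2c, with a gene body of 2974 bases, differed by -0.64 (SE 0.20, adjusted p = 0.273), and Cdc20, with 4443 bases, by -0.57 (SE 0.21, adjusted p = 0.374). With the start window subtracted from the body, the members' median was 0.20 and 36 of 40 were positive.

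Relative to input, 2 gene bodies of the mitotic genes were lower in differentiating ChIP and 14 in proliferating ChIP. The median log2 over input was -0.31 for the members in differentiating ChIP, with 8 of 40 positive, against -0.16 for all bodies, and -0.42 in proliferating ChIP, with 6 of 40 positive, against -0.12. In differentiating ChIP 2 of 40 were lower by edgeR (5%), against 1.33% of 24848 bodies, and none was higher, against 0.6%. These were Espl1, -0.64 (SE 0.12, adjusted p = 0.0479), and Incenp, -0.58 (SE 0.11, adjusted p = 0.0479). In proliferating ChIP 14 of 40 were lower (35%), against 6.38% of all bodies, and none was higher, against 2.89%. Ncapd2 was lowest with -0.91 (SE 0.16, adjusted p = 0.0163), followed by Espl1 with -0.75 (SE 0.13, adjusted p = 0.0164), Incenp with -0.72 (SE 0.12, adjusted p = 0.0153) and Ncaph with -0.70 (SE 0.12, adjusted p = 0.0156). Incenp held 0.910, 0.908 and 0.886 CPM per kb in differentiating ChIP and 1.34 in the differentiating input, and 0.832, 0.745 and 0.835 in proliferating ChIP and 1.33 in the proliferating input. In both stages all 3 ChIP libraries of Incenp lay below the input. The summed bodies stood at a log2 over input of -0.18 ± 0.04 in differentiating and -0.36 ± 0.10 in proliferating ChIP, and the IgG libraries at -0.02 (differentiating) and 0.03 (proliferating). Without proliferating replicate 3 no body of any gene passed in either stage. The 14 lower bodies in proliferating ChIP were 8 without proliferating replicate 2, 7 without differentiating replicate 1 and 5 without differentiating replicate 2. Of all bodies, 3.36%, 3.16% and 1.89% were lower in these runs. The 2 in differentiating ChIP were 0 when any 1 differentiating replicate was left out, 13 without proliferating replicate 1 and 4 without proliferating replicate 2. There 0%, 9.81% and 1.73% of all bodies were lower. With the differentiating input in place of the proliferating one 6 bodies of the members were lower in proliferating ChIP, against 3.05% of all bodies.

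The share of a gene's reads that fall in its start window needs no scaling between libraries. Summed over the 40 genes it was 4.91%, 4.53% and 4.41% in differentiating ChIP, against 11.6%, 8.89% and 11.9% in proliferating ChIP, with no overlap (means 4.61% ± 0.26 and 10.8% ± 1.64, SD, n = 3 each). The inputs gave 4.57% (differentiating) and 4.50% (proliferating), and the IgG libraries gave 4.27% (differentiating) and 4.76% (proliferating). The differentiating ChIP share was thus at the level of input and IgG. Tested as a region by stage term with the library as a block, 28 of 37 members had a lower start to body ratio in differentiating cells (75.7%), against 28.3% of 17101 genes, and none had a higher one, against 0.146%. All 37 values were negative, with a median of -1.27, against -0.54 over all genes tested.

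Mki67 had the largest fall in the ratio, -2.04 (SE 0.33, adjusted p = 1.62e-07) on the log2 scale by edgeR. Its start window held 6.92, 2.21 and 3.19 percent of its reads in differentiating ChIP, against 11.3, 11.6 and 19.4 percent in proliferating ChIP. Ect2 fell by a similar amount, -2.01 (SE 0.37, adjusted p = 5.05e-06), with 1.83, 1.08 and 1.53 percent in differentiating and 6.11, 3.83 and 6.78 percent in proliferating ChIP. Ccnb1 followed with -1.97 (SE 0.37, adjusted p = 5.85e-06), and Ccna2 with -1.85 (SE 0.37, adjusted p = 2.17e-05). Cenpe, whose window alone did not pass, differed by -1.77 (SE 0.38, adjusted p = 7.62e-05). The 9 members tested that did not pass were Cdk1, Birc5, Kif2c, Nusap1, Espl1, Bub1b, Cdc20, Mad2l1 and Kif20a, with values between -0.94 (Cdk1) and -0.50 (Kif20a). By role, the ratio fell for 5 of 6 cyclins, Cdk1 and proliferation factors, 4 of 5 kinases tested, 1 of 4 checkpoint and APC genes (Ube2c), 3 of 4 passenger genes, 4 of 4 centromere and kinetochore genes, 6 of 9 spindle and cytokinesis genes and 5 of 5 condensin and topoisomerase genes. Without proliferating replicate 3 the count was 17 of 36 members tested, against 14.9% of all genes tested, and all 36 values were negative.

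**Figure D5:**
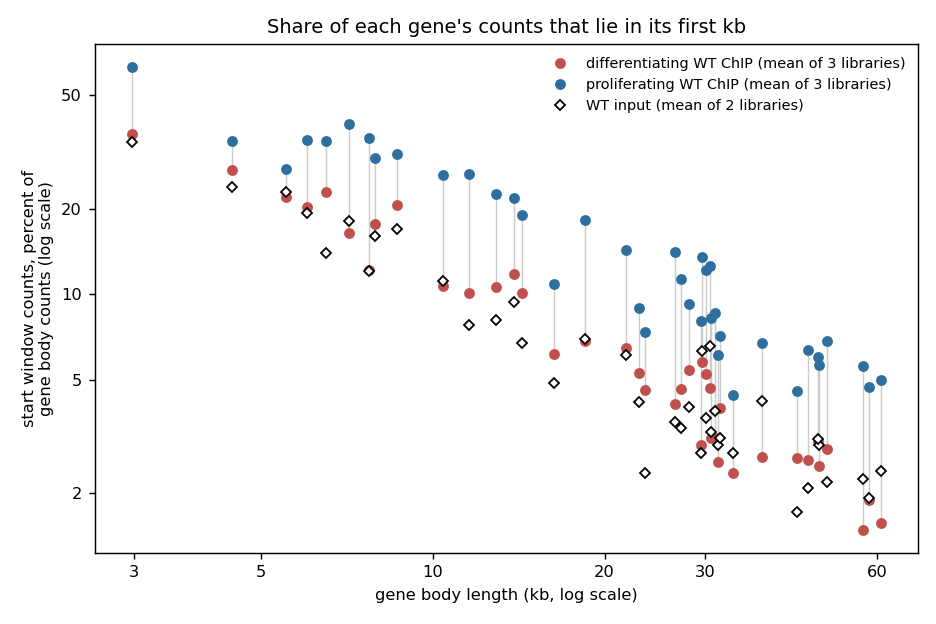
Start window counts as a percent of gene body counts (vertical axis, log scale) against gene body length in kb (horizontal axis, log scale) for the 40 genes. Red and blue circles are means of the 3 differentiating and the 3 proliferating WT ChIP libraries, joined by a grey line, and black diamonds are means of the 2 inputs. The share is higher in short genes in every kind of library. Per gene the means run from 1.48% to 36.5% in differentiating ChIP and from 4.42% to 62.9% in proliferating ChIP, and every blue circle is above its red one.

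Some other genes of the same processes were called in the same direction, against the 4.57% of all windows that were lower. Of 12 cohesin genes 11 were tested at start windows, and 4 fell in differentiating cells (edgeR), with a median of -0.77. Rad21, the cohesin kleisin, differed by -0.91 (SE 0.29, adjusted p = 0.0368), and Stag1, a cohesin subunit, by -0.99 (SE 0.28, adjusted p = 0.0185). Of 23 other kinetochore and checkpoint genes tested 2 fell, of 18 other spindle and cytokinesis genes 3, of 14 G2 and M regulators 1, of 16 APC subunits 1, and of 12 genes of the DREAM and B-Myb complexes 2. The G2 and M regulator was Wee1, the kinase that holds Cdk1 inactive, with a difference of -1.31 (SE 0.30, adjusted p = 0.00248). The DREAM genes were Lin9, -0.83 (SE 0.28, adjusted p = 0.0461), and Lin54, -0.98 (SE 0.32, adjusted p = 0.0415), both subunits of the MuvB core. None of the 3 condensin II genes passed, with a median of -0.49, and none of the 29 DNA replication genes tested, with a median of -0.22. The 5 genes named in these sentences were chosen after their values were seen.

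A few markers of cell types were also called between the stages, read here as H3K14ac at their starts and not as RNA. Of all windows, 4.57% were lower in differentiating cells and 2.03% higher. Windows of 10 neural stem and progenitor markers summed to 14.7 to 22.5 CPM in differentiating ChIP, against 32.8 to 42.8 in proliferating ChIP, with none at 0. Of them 2 fell, Nes and Notch1, and Notch1 differed by -0.86 (SE 0.27, adjusted p = 0.0292). The 10 neuronal markers summed to 10.0 to 12.1 in differentiating and 12.1 to 13.2 in proliferating ChIP, with 1 of 10 at 0 in 1 proliferating library. Of the 5 tested 1 rose, Syt1, while 2 had negative differences, and the median was 0.17. Of 6 astrocyte markers 1 rose, Gfap, while 3 had negative differences, and the median was 0.006. Their sums were 8.68 to 12.1 in differentiating and 11.5 to 15.5 in proliferating ChIP. Markers of the oligodendrocyte lineage, microglia, endothelium and mesenchyme gave no call among 5, 2, 5 and 4 tested. Nes, Syt1 and Gfap were likewise named after their values were seen. The part of cell composition in the mitotic gene result was not tested.

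The Hbo1 null libraries were too shallow to describe single genes. Kat7 itself held 0 start window counts and 11 gene body counts in the differentiating null library, and 0 and 4 in the proliferating one. Its gene body stood at 34.3 CPM in the differentiating null library, against 32.2 to 37.9 in differentiating WT ChIP, and at 62.4 in the proliferating null library, against 26.9 to 32.8 in proliferating WT ChIP. With so few reads, and with the deleted part of the gene not given, these counts do not check the genotype. In WT cells the Kat7 window itself fell in differentiating cells, by -1.17 (SE 0.34, adjusted p = 0.0213). Over the 40 mitotic windows the differentiating null library held 19 counts, 59.3 CPM (95% exact Poisson interval 35.7 to 92.6), an interval that holds the WT differentiating levels and reaches into the range of the proliferating ones. The proliferating null library held 2 counts, 31.2 CPM (3.78 to 113), against 82.7 to 106 in proliferating WT ChIP. A loss of H3K14ac at the mitotic starts in null cells was not detectable at this depth. The windows' share of the 40 genes' reads was 5.66% (exact binomial interval 3.44 to 8.69) in the differentiating null library and 4.08% (0.498 to 14.0) in the proliferating one. The differentiating WT shares fall inside the first interval, and the proliferating WT shares fall inside the second.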

How the data were processed

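The authors deposited whole-number read counts per gene for 12 ChIP-seq libraries, in 1 table of start windows and 1 of gene bodies. Per the submitters' processing notes, bcl2fastq, featureCounts and the mm10 genome were used, and the aligner and the treatment of reads that map to several places or genes are not given in the sources used here. The members and the other gene lists were chosen with earlier results of these data known. Symbols were taken from RefSeq by gene ID.

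Counts were tested with edgeR 4.0.16 (quasi-likelihood, R 4.3.3) over all features with a mean count of at least 10 and Benjamini-Hochberg adjustment, and a call is an adjusted p under 0.05. Stage comparisons used TMM, and comparisons with input or IgG used gene body totals and 1 mean per group, where each lone background library is assumed to vary like the ChIP libraries. Intervals are 95% and cover counting error only, since reads are not independent molecules. DESeq2 1.42.0, other scalings and filters, left-out replicates and a replicate block were alternatives. At gene bodies with a mean count of at least 30, replicate libraries differed by more than counting noise. The same comparison was not made for start windows. Genes named with values in every library were those called at the start window or in its ratio to the body, and the 2 with the most window counts in each role. Cdk1, Mad2l1, Nuf2 and Ncapd2 fall outside that rule and were added after their values were seen.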

Additional observations from a re-analysis of the deposited data

How the results depend on the processing

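Of 810 values recomputed under alternatives, 618 kept their direction and side of the threshold or moved little, 114 lost significance, 13 gained it and 64 moved further. For 1 value of a single gene the sign changed, the stage difference of the Aurka window, 0.025 without differentiating replicate 3. A median that crossed 0 was counted by how far it moved, as in differentiating ChIP with the common enrichment over both stages. The members lower at start windows (6) were 28 with gene body totals and 2 with DESeq2, and 0 to 7 when replicates were left out in turn. Over all windows the lower share was, in that order, 25.7%, 2.66% and 1.33% to 4.75%. The members' median was -1.15 with gene body totals, and -0.68 to -0.47 with replicates left out. Gene bodies without the window gave a median of 0.20. Members above input in proliferating ChIP (10) were 2 with TMM, 1 with DESeq2, 1 with a common enrichment over both stages and 3 to 10 with replicates left out. Of all windows, 6.76%, 7.98%, 11.6% and 11.2% to 20.3% were above input, in that order. The members' medians were 0.42 with TMM, 0.31 with the common enrichment and 0.77 to 0.99 with replicates left out. In differentiating ChIP the common enrichment gave 1 member and a median of 0.31. Bodies below input in proliferating ChIP (14) were 7 with TMM, 7 with DESeq2, 24 with the common enrichment, 6 with the other stage's input and 0 to 17 with replicates left out, with medians of -0.32 with TMM and -0.33 with the common enrichment. In differentiating ChIP (2) the lower member bodies were 0 with TMM, 0 without a filter, 24 with the common enrichment, 12 with the other stage's input and 0 to 13 with replicates left out. Of all bodies, 0%, 0%, 21.3%, 10.1% and 0% to 9.81% were lower, in that order. The members' median was -0.19 with TMM. Members above IgG in proliferating ChIP (2) were 0 with TMM, 0 with DESeq2, 0 without a filter, 1 with the common enrichment and 0 to 2 with replicates left out, with medians of 0.16 with TMM, 0.81 without a filter, 0.58 with the common enrichment, 1.27 with the other stage's IgG and 0.76 to 1.17 with replicates left out. In differentiating ChIP the common enrichment gave 1 member, with medians of 0.58 there, -0.51 with TMM and -0.23 with the other stage's IgG. Relative to input, the members lower were 0 to 1 and their median -1.15 to -0.91 with replicates left out, and -0.65 with TMM. Members with a lower start to body ratio were 17 to 27, and their median -1.38 to -1.23, with replicates left out. Over all genes tested the lower share was then 14.9% to 33.2%. The cause of these changes was not tested, except that the common enrichment averages both stages by construction. No member window reached a mean count of 30, so that filter gave no member value. The other stage's backgrounds were chosen as alternatives after seeing the data.

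Replicate numbers are shared by the stages, but the labels do not say what they mark, and the deviations of same-numbered libraries correlated at 0.17, 0.03 and 0.11 at start windows and at -0.09, 0.25 and -0.23 at gene bodies, so they were not taken as pairs. With the number as a replicate block, the members lower at start windows were 5, with Nek2 at an edgeR adjusted p of 0.0683. Those above input in proliferating ChIP were 5, bodies below input were 7 in proliferating and 0 in differentiating ChIP, and the ratio count stayed at 28. Over all features the shares of these results with the block were, in the same order, 2.67%, 11.6%, 2.01%, 0% and 25.9%.

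Depth limits every value for a single gene, since a member window held 1 to 40 counts per WT ChIP library, and library depth is lower in all 3 proliferating than in all 3 differentiating ChIP libraries.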
